A study of Homo sapiens with 8 samples.

Results

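The genes described here are 7 matrix metalloproteinases (*MMP1*, *MMP2*, *MMP3*, *MMP7*, *MMP9*, *MMP10* and *MMP14*) and 3 of the tissue inhibitors of metalloproteinases (*TIMP1*, *TIMP2* and *TIMP3*). They are 10 of the 22439 genes that could be named on the array, and each has 1 probe, found through its RefSeq accession. They were chosen by name, with earlier results of these data known. RNA was measured on 8 Agilent arrays with 2 colors. Each array held RNA of treated cells in Cy5 (red) and RNA of control cells of the same line in Cy3 (green), with no dye swap. EBC-1 cells and SK-MES-1 cells, both labeled as lung squamous cell carcinoma (LUSQ), were transfected with *miR-150-3p* and measured on 1 array each. SBC-3 cells, labeled as small cell lung cancer, received one of 3 siRNAs against the replication gene *DONSON* (siDONSON-1, siDONSON-2 and siDONSON-3), with 1 array per siRNA. A549 cells, labeled as lung adenocarcinoma, had *LOXL2*, the gene of a lysyl oxidase, edited by CRISPR/Cas9, and 3 edited samples (A549-GE1, A549-GE2 and A549-GE3) were measured on 1 array each. The labels call the transfection controls both mock and not transfected, and the editing controls not edited. They give no time after transfection and do not say whether the edited samples are separate clones. Nothing in the labels says that the control RNAs of arrays of the same line came from separate cultures, so the p-values measure only the spread between these arrays.

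Metalloproteinases are zinc enzymes that cut proteins of the extracellular matrix and of the cell surface. Most are secreted as inactive proenzymes and become active when the propeptide is removed. TIMPs bind the active site and block it. In lung tumors these enzymes are known for their part in invasion and in the release of growth factors held by the matrix. The enzymes fall into groups by what they cut. *MMP1* encodes the interstitial collagenase, *MMP2* and *MMP9* the gelatinases, *MMP3* and *MMP10* stromelysins and *MMP7* matrilysin, a small enzyme with no hemopexin-like domain. *MMP14* encodes a metalloproteinase anchored in the cell membrane. *MMP14* and TIMP2 together are known to activate the proenzyme of *MMP2* at the cell surface.

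The targeted genes were low in their own arrays. The log2 ratio of *DONSON* was -2.15, -1.79 and -2.11 with siDONSON-1, siDONSON-2 and siDONSON-3, and that of *LOXL2* was -2.49, -2.67 and -2.59 in A549-GE1, A549-GE2 and A549-GE3. The lineage of the lines was only partly visible in the control channels. The summed marker level was highest in the line with the matching label for the neuroendocrine list alone. Of 5 squamous markers, SK-MES-1 had *TP63* and *SOX2* well above background and EBC-1 had *SOX2* alone, and *KRT5*, *KRT6A* and *DSG3* were not above it in either. *SOX2* was above background in A549 as well, and both *TP63* and *SOX2* in SBC-3. Summed over these 5 markers, the level was highest in SBC-3 (5.86), followed by A549 (1.03). Both LUSQ lines lay lower, EBC-1 at -0.28 and SK-MES-1 at -1.03, so that this sum did not set them apart as squamous. Of 4 adenocarcinoma markers, A549 had *NAPSA* above background and not *NKX2-1*. *NAPSA* was also above it in EBC-1 and SK-MES-1. The summed level of the 4 was -1.95 in A549, against -1.34 in EBC-1, -1.56 in SBC-3 and -2.26 in SK-MES-1. Of 6 neuroendocrine markers, SBC-3 had 3 above background (*NEUROD1*, *CHGA* and *SYP*), against 1 in A549, 1 in SK-MES-1 and 0 in EBC-1. The summed level of the 6 was 1.09 in SBC-3, 0.05 in A549, -1.65 in SK-MES-1 and -2.07 in EBC-1.

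Across the treatments, *MMP7* was the gene of the 10 that moved most. Its RNA was 3.83-fold lower in *LOXL2*-edited A549 cells (SD of the log2 ratio 0.235, n = 3). As a mean of the 3 siRNAs in SBC-3 cells it was at least 3.36-fold higher in the processed signals (n = 3). The single log2 ratios there ran from 0.87 to 2.56, and another background correction (normexp, with loess) reduced their mean to 0.34. *MMP9* was 3.11-fold higher in EBC-1 cells with *miR-150-3p*, on 1 array. *TIMP1* moved little on any array, from -0.18 to 0.30 on the log2 scale. A gene counted as measured on an array where the red or the green signal of its probe stood well above background. Of the 10 genes, *MMP7*, *MMP9*, *MMP14*, *TIMP1* and *TIMP2* were counted on all 8 arrays. *MMP3* and *MMP10* were counted on none of them, *MMP2* and *TIMP3* on the SK-MES-1 array alone, and *MMP1* on 4 arrays. As RNA of whole cultures was measured, fewer cells with a transcript and less of it per cell cannot be told apart.

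**Figure D1:**
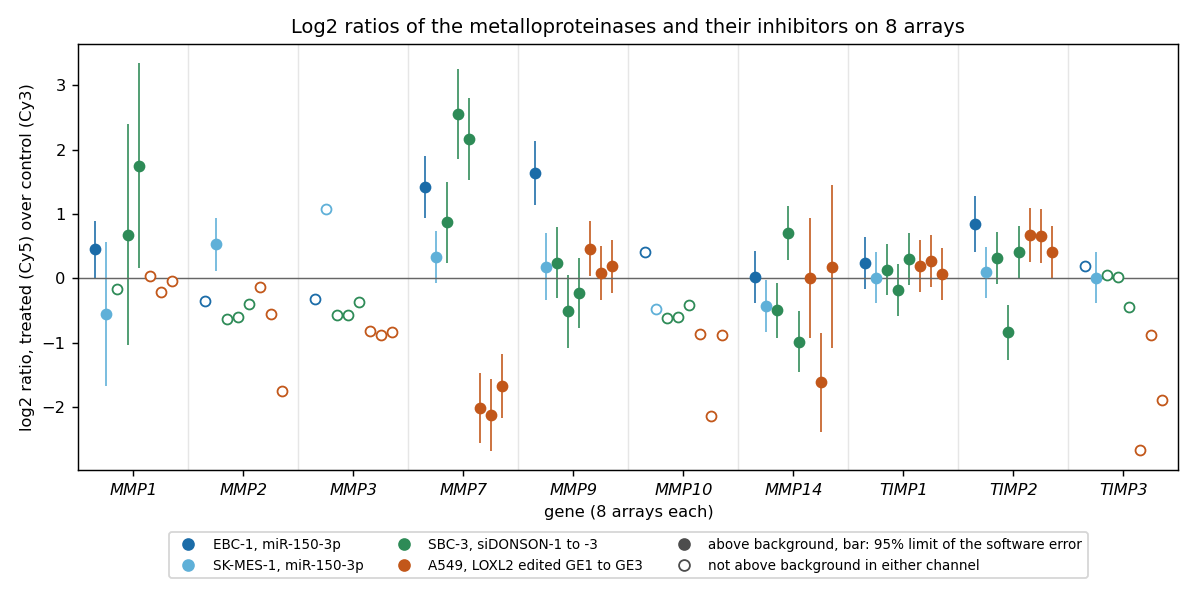
The log2 ratio of treated over control RNA (vertical axis) is plotted for each gene (horizontal axis) on each of the 8 arrays, colored by cell line. Filled points were well above background in at least 1 channel and carry the 95% limit of the software's error as a bar, and open points were not. *MMP7* lies between -2.12 and -1.67 on the 3 edited A549 arrays and between 0.87 and 2.56 on the 3 siDONSON arrays.

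The control channels show which of these transcripts each line held without the treatment. A level is given as log2 of the Cy3 signal minus the array's 75th percentile. Such levels can be set against each other for 1 probe in different lines, not between genes. EBC-1 and SK-MES-1 have 1 array each, so that their levels have no spread of their own.

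*MMP2*, the gelatinase A gene, was above background only in SK-MES-1, at a level of 1.72. Its levels were -5.10 in EBC-1, -5.38 to -5.10 in SBC-3 and -5.44 to -4.18 in A549, none of them well above background. SK-MES-1 was at least 22.5-fold above EBC-1, at least 26.3-fold above SBC-3 and at least 37.7-fold above A549. These bounds set the bright line against the lowest signal that counted as well above background on the arrays of the dim line. Where the dim probe's own signal was higher, that signal was used. All bounds given here hold for the processed signals, and another background correction (normexp) gave smaller differences for some genes.

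*TIMP3*, which encodes the inhibitor that stays bound to the matrix, was likewise above background in SK-MES-1 alone. Its level was 1.89 in SK-MES-1, and it was not well above background in EBC-1 (-4.77), SBC-3 (-5.14 to -4.88) or A549 (-3.55 to -3.45). SK-MES-1 was at least 25.1-fold above EBC-1, at least 29.4-fold above SBC-3 and at least 41.3-fold above A549. *MMP14*, *TIMP1* and *TIMP2* had their highest measured level in SK-MES-1 too. Of 5 fibroblast markers, *COL1A1* and *PDGFRB* were above background in SK-MES-1, EBC-1 and A549 and *COL1A1* alone in SBC-3, and *COL3A1*, *DCN* and *LUM* were not in any line. The summed level of the 5 was 3.79 in SK-MES-1, 2.60 in SBC-3, 0.15 in EBC-1 and -0.62 in A549. Its part in the levels of *MMP2* and *TIMP3* was not tested.

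*MMP14* had a level of 3.39 in SK-MES-1 and 3.20 in EBC-1, a difference of 1.14-fold that single arrays cannot order. In SBC-3 it was -0.23, -0.20 and -0.48. In A549 it was -3.83, -2.57 and -4.46, and the control channel was well above background on 1 of these 3 arrays. The LUSQ lines lay 11.3-fold and 12.9-fold above SBC-3, and SBC-3 lay above A549 with no overlap between the 3 arrays of each. With dim A549 signals raised to the lowest signal well above background, SBC-3 was at least 7.46-fold above A549.

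*MMP7* was present in SK-MES-1 (3.02), in A549 (2.41 to 2.51) and in EBC-1 (1.86). In SBC-3 its control level was -2.85, -3.29 and -2.88, which was not well above background on any array. A549 was at least 41-fold, EBC-1 at least 26.9-fold and SK-MES-1 at least 60-fold above SBC-3. *MMP9*, the gelatinase B gene, was highest in EBC-1 (2.02), followed by A549 (-1.37 to -1.07), SBC-3 (-2.24 to -1.80) and SK-MES-1 (-2.56). EBC-1 was 9.33-fold above A549, 16.1-fold above SBC-3 and 23.9-fold above SK-MES-1. SBC-3 and SK-MES-1 were 1.49-fold apart, a difference of little more than the range within SBC-3.

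*MMP1* was seen in EBC-1 (-0.83) and, at 2 of the 10 spots of its probe, in SK-MES-1 (-3.66). EBC-1 was at least 6.5-fold above SK-MES-1, at least 4.48-fold above SBC-3 and at least 6.43-fold above A549. The stromelysin genes *MMP3* and *MMP10* were not well above background in either channel of any array, so that no level and no change can be given for them.

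*TIMP1* and *TIMP2* were well above background in both channels of all 8 arrays. *TIMP1* ranged down from 4.64 in SK-MES-1, with 3.50, 3.40 and 3.43 in A549, 3.34 in EBC-1 and 2.74 to 2.79 in SBC-3, a span of 3.67-fold. EBC-1 and A549 were 1.08-fold apart, close to the range within A549. *TIMP2* was 7.52 in SK-MES-1, 6.29 in EBC-1, 6.01 to 6.03 in A549 and 2.99 to 3.10 in SBC-3. SK-MES-1 was 22.3-fold above SBC-3. EBC-1 and A549 were close (levels of 6.29 and 6.01 to 6.03), and their order turned with quantile, Aquantile or normexp processing of the channel, whereas for the 5 other genes measured in over 1 line the order held under all of these. Normexp narrowed the gap between the highest and the lowest of these lines from 2.83 to 0.578 for *MMP1*, from 4.58 to 1.92 for *MMP9* and from 7.01 to 3.47 for *MMP14*, on the log2 scale.

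**Figure D2:**
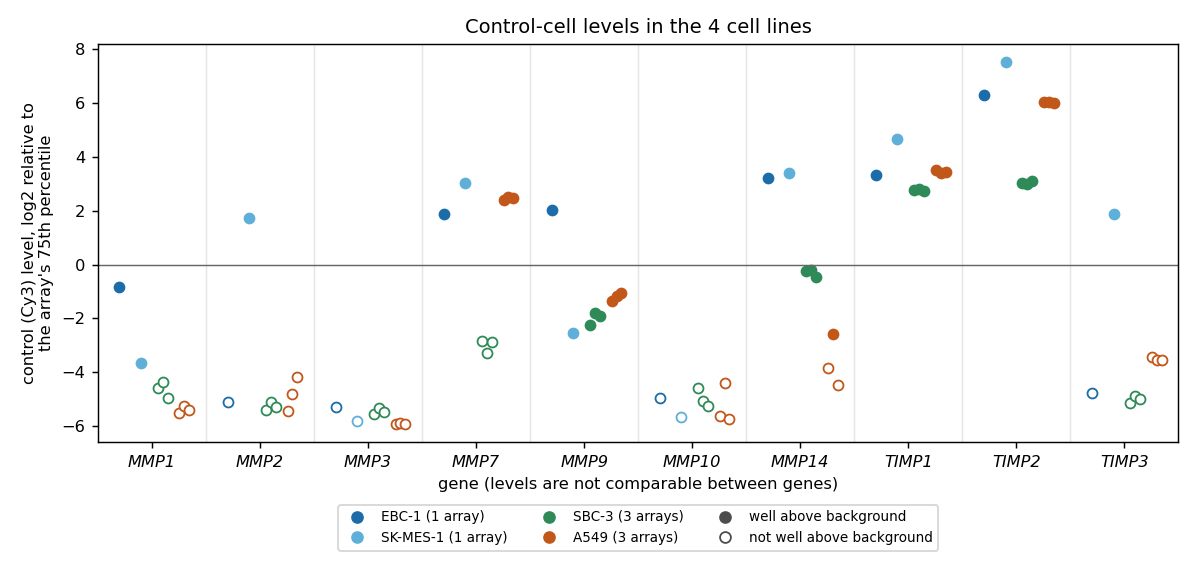
The control (Cy3) level of each gene, as log2 relative to the 75th percentile of the array (vertical axis), is plotted for the 4 cell lines (colors), with 1 point per array. Open points were not well above background. *MMP2* and *TIMP3* have a filled point in SK-MES-1 alone, and *MMP7* lies at 2.41 or above in A549 and below -2.8 in SBC-3.

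Only SBC-3 and A549 have 3 arrays each, and their control channels were compared with limma. All 5 of the genes that could be tested differed. *MMP7*, *MMP9*, *TIMP1* and *TIMP2* were higher in A549 and *MMP14* was higher in SBC-3. This count carries little weight, as 46.4% of all genes tested were called higher in A549 and 40.6% lower. The difference in the level of *TIMP2* was 2.98 (SE 0.0418, 7.91-fold, adjusted p = 3.76e-08) and that of *TIMP1* was 0.68 (SE 0.0408, 1.60-fold, adjusted p = 1.35e-05). *MMP7* differed by 5.47 (SE 0.126, adjusted p = 2.32e-07), for which the bound is the one given above. *MMP9* differed by 0.78 (SE 0.135, 1.72-fold, adjusted p = 0.00191). Background correction by normexp reduced the *MMP9* difference to 0.04 (adjusted p = 0.234), and the adjusted p was under 0.05 under all other alternatives. *MMP14* differed by -3.32 as measured (SE 0.474, adjusted p = 0.000809), with A549 above background on 1 of 3 arrays, and normexp reduced this to -0.79 (adjusted p = 5.33e-10). The control RNA of a line may be the same on its 3 arrays, which was not tested, and the spread would then be technical. The log2 difference between arrays of SBC-3 had an SD of 0.123 to 0.141 in the control channel and of 0.358 to 0.486 in the treated channel, which holds 3 different siRNAs. Between arrays of A549 it was 0.0827 to 0.0906 and 0.128 to 0.17.

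*MMP7* lies at the end of a cluster of metalloproteinase genes on chromosome 11. In the RefSeq gene table the order along the chromosome is *MMP7*, *MMP20*, *MMP27*, *MMP8*, *MMP10*, *MMP1*, *MMP3*, *MMP12* and *MMP13*. RefSeq promoter sequences (build GRCh38.p14) were at hand for 5 of the 10 genes. The 250 bases before the start are shown for *MMP7*, which changed in 2 of the treatments, and for *MMP10*, a gene of the same cluster that was not well above background on any array. Both are on the minus strand and are written 5′ to 3′. The first covers chr11:102530748-102530997 and the second chr11:102780629-102780878. Capitals mark matches, on either strand, to the AP-1 motif (TGACTCA, read TGAGTCA on the other strand), a TCF/LEF core (CTTTGA, or TCAAAG) and the TATA box (TATAAA, or TTTATA).
*MMP7*: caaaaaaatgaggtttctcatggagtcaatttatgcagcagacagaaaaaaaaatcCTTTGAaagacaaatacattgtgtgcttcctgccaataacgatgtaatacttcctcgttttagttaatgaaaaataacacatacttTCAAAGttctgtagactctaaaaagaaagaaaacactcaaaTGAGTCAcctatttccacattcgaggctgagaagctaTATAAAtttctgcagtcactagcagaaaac
*MMP10*: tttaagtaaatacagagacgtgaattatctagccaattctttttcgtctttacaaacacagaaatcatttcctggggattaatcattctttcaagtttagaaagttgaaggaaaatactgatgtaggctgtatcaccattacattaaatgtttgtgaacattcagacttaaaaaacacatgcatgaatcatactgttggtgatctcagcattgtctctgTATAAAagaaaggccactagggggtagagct

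The *MMP7* stretch holds 1 AP-1 match, whose first base lies 67 bases before the start, TCF/LEF matches at 194 and 108 bases, and a TATA match at 30 bases. The *MMP10* stretch has a TATA match at 31 bases and no match to the other motifs. Of the 35116 RefSeq promoters cut to the same length, 4.2% held the AP-1 motif, 11.2% the TCF/LEF core and 10.7% the TATA box. The stretches of *MMP14*, *TIMP1* and *TIMP3* held none of the 3 motifs. Both stretches of the cluster are poor in G and C, at 33.6% for *MMP7* and 34.4% for *MMP10*, against 56.8% for *MMP14*, 64.8% for *TIMP1*, 72.4% for *TIMP3* and a median of 58% over all promoters. A match is a description of the letters and shows no binding.

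In *LOXL2*-edited A549 cells, *MMP7* had control signals of 1645, 1766 and 1772 and treated signals of 407.2, 405.2 and 555.6 on the arrays of A549-GE1, A549-GE2 and A549-GE3. All 3 treated signals lay below all 3 control signals. The log2 ratios were -2.01, -2.12 and -1.67, with a mean of -1.94 (SD 0.235, n = 3). The SE of 0.322 uses the spread pooled over all groups, not that of these 3 arrays. This change of *MMP7* passed the test of limma (adjusted p = 0.00972). It was the only one of the 5 genes tested to do so, against 6.77% of all genes called lower and 7.58% called higher. Without A549-GE1 the adjusted p of *MMP7* was 0.0585, without A549-GE2 it was 0.0672 and without A549-GE3 it was 0.0483, with means from -2.07 to -1.84. Normexp and loess normalization gave a mean of -1.48 (adjusted p = 0.00107), and subtraction of the other groups one of -3.31 (adjusted p = 0.00851). The latter takes in the positive *MMP7* means of those groups (0.88 with *miR-150-3p* and 1.86 with the siRNAs).

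In SBC-3 cells, the *MMP7* control signal was 45.85, 30.06 and 42.16 on the arrays of siDONSON-1, siDONSON-2 and siDONSON-3. The treated signal was 83.83, 177.1 and 189.1, and it was well above background on all 3 arrays. The treated samples lay above the controls without overlap, with siDONSON-1 the lowest of them. All the treated signals stayed below the control signal of every other line, the lowest of which was 1118 in EBC-1. The log2 ratios were 0.87, 2.56 and 2.17, with a mean of 1.86 (SD 0.883, n = 3, adjusted p = 0.0201 by limma). The SE of 0.32 uses the spread pooled over all groups, not that of these 3 arrays. As the control was dim on every array, the change is given as at least 3.36-fold, from a mean log2 signal of 7.14 in treated cells and a floor of 5.39, the mean over arrays of the higher of the control signal and the lowest signal well above background. The measured control mean was 5.28. *MMP7* was 1 of 5 genes tested to be called, against 4.01% (580) of all genes called higher and 3.21% (464) lower, or 432 and 553 with each array centered on its median. The call depended on the treatment of dim signals. Normexp and loess gave a mean of 0.34 (adjusted p = 0.196), the spread of these 3 arrays alone gave an adjusted p of 0.12, and the gene drops out where both channels must be above background. The adjusted p was 0.0276 without siDONSON-1, 0.0539 without siDONSON-2 and 0.0955 without siDONSON-3.

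In LUSQ cells with *miR-150-3p*, *MMP7* had a control signal of 1118 and a treated signal of 2998 in EBC-1. In SK-MES-1 these were 2382 and 3000. The EBC-1 log2 ratio of 1.42 was beyond the 95% limit of the software's error, 0.475. The SK-MES-1 log2 ratio of 0.33 was within the limit of 0.404. Both arrays were higher, and the mean of 0.88 did not pass the test (SE 0.391, adjusted p = 0.177).

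**Figure D3:**
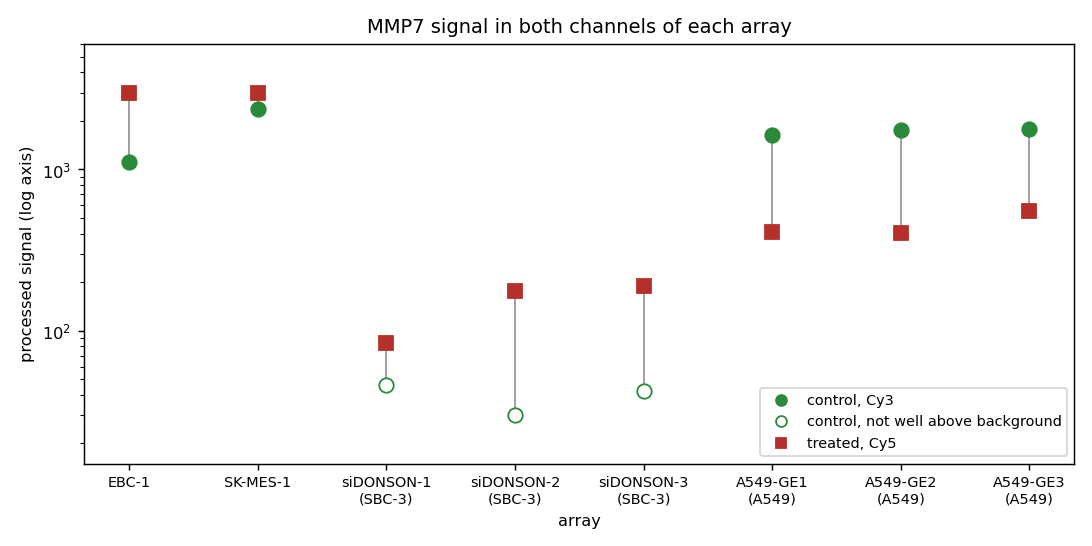
The processed *MMP7* signal (vertical axis, logarithmic) of the control (Cy3, circles) and treated (Cy5, squares) channel is plotted for each of the 8 arrays. Open circles were not well above background. The treated signal lies below the control on the 3 edited A549 arrays and above it on the other 5 arrays.

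*MMP9* had its highest log2 ratio in EBC-1. Its control signal of 1249 in EBC-1 stood beside a treated signal of 3879, a log2 ratio of 1.64 (limit 0.497). In SK-MES-1 the signals were 50.02 and 56.87, a log2 ratio of 0.19 (limit 0.524). The mean of both arrays was 0.91 (SE 0.315) with an adjusted p of 0.108 by limma. The EBC-1 value has no replicate. A fit without SK-MES-1 takes its spread from the other treatments alone, so that it is not read as a test of the EBC-1 value. Whether EBC-1 and SK-MES-1 differ was not tested. With the siRNAs, *MMP9* had log2 ratios of 0.25, -0.51 and -0.22, which lie on both sides of 0. In edited A549 cells they were 0.46, 0.08 and 0.19, with a mean of 0.24 (95% interval -0.359 to 0.844, adjusted p = 0.574).

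In all, *MMP7* and *MMP9* were the 2 genes past a log2 ratio of 1 in EBC-1, both higher, where 5.96% of all genes were past 1 and 6.04% below -1. No gene of the 10 was past it in SK-MES-1, where 2.57% of all genes were past 1 and 1.27% below -1. Over both arrays, 0 of 6 genes tested passed limma, and 1 (*MMP9*) had an unadjusted p under 0.05, as did 30% of all genes. Among all genes, 2.47% (352) were called higher and 2.9% (413) lower with *miR-150-3p*, and 289 and 563 when each array was centered on its median.

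*MMP2* could be followed only in SK-MES-1, where *miR-150-3p* was accompanied by signals of 972.4 (control) and 1409 (treated). The log2 ratio of 0.54 was beyond its limit of 0.412. *TIMP3* had signals of 1088 and 1099 on the same array, a log2 ratio of 0.01. Neither gene has a second array on which it was counted, so that no test was possible.

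*MMP1* had a log2 ratio of -0.55 on the SK-MES-1 array, within its 95% limit of 1.12, and of 0.45 on the EBC-1 array (limit 0.445). Its mean of -0.05 had an adjusted p of 0.949. In SBC-3 its control signal was above background at none of the 10 spots. With siDONSON-3 the treated channel was above background at 8 of 10 spots, with siDONSON-2 at 1 and with siDONSON-1 at 0. The treated signals were 12.16, 22.84 and 33.89 in the order of the siRNA numbers, and the control signals were 13.66, 14.22 and 10.05. No fold is given, as the treated mean did not exceed the background bound.

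*MMP14* varied between arrays of the same treatment more than between treatments. With siDONSON-1, siDONSON-2 and siDONSON-3 its log2 ratios were -0.50, 0.71 and -0.98, each beyond its limit (0.427, 0.427 and 0.469). The siRNAs differed in direction, and the mean of -0.26 (SD 0.869, n = 3) had an adjusted p of 0.723. In edited A549 cells the ratios were 0.01, -1.61 and 0.18. The low value of A549-GE2 came with a control signal of 52.03, against 21.69 and 14.53 on the other arrays of that control, while the treated signals were close, at 21.82, 16.99 and 16.51. Without A549-GE2 the mean turned from -0.47 to 0.10. In LUSQ cells the EBC-1 array gave 0.02 for *MMP14* and the SK-MES-1 array -0.43 (adjusted p of the mean 0.814).

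No log2 ratio of an inhibitor was past 1 in either direction on an array where it was counted. *TIMP1* had log2 ratios of 0.24 and 0.01 with *miR-150-3p*, of 0.14, -0.18 and 0.30 with the siRNAs and of 0.19, 0.27 and 0.07 in edited A549 cells. The 95% intervals of its means ran from -0.191 to 0.445, from -0.177 to 0.344 and from -0.0856 to 0.441, so that a change past 0.45 in either direction lay outside all of them. *TIMP2* was 0.85 in EBC-1 (limit 0.428) and 0.09 in SK-MES-1. Its siDONSON ratios were 0.32, -0.84 and 0.42, with siDONSON-2 apart from the others, and without siDONSON-2 the mean turned from -0.03 to 0.37. In edited A549 cells *TIMP2* was higher on all 3 arrays, at 0.67, 0.66 and 0.41. The mean of 0.58 (SD 0.146, n = 3, 1.49-fold) had an unadjusted p of 0.0491 and an adjusted p of 0.159 with the spread of all groups, and an adjusted p of 0.0154 with the spread of these 3 arrays alone. *TIMP3* was not counted on the edited A549 arrays, with control signals of 26.6 to 28.25 and treated signals of 4.446 to 14.39, none well above background.

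The other genes around these enzymes were taken as lists, which were also chosen with earlier results of these data known. The AP-1 and ETS transcription factors, which are known to bind promoters of metalloproteinase genes, had 12 genes tested in edited A549 cells. Of these 3 were lower (*FOSL1*, *ETV4* and *ETV5*) and 0 higher, with a median log2 ratio of -0.35 beside 0.0223 over all genes, of which 6.77% were lower and 7.58% higher. *FOSL1*, an AP-1 subunit, was -1.20, -1.41 and -1.49 on the 3 arrays (adjusted p = 0.00352), and it was called with any 1 of them left out. The ETS factor *ETV4* was -0.54, -1.23 and -0.74 (adjusted p = 0.0144), and its adjusted p was 0.0401 to 0.0929 with 1 array left out. *ETV5* was -0.66, -0.56 and -0.55 (adjusted p = 0.0168, and 0.0892 to 0.107 with 1 array left out). With the other groups subtracted, the *ETV5* mean was -0.35 (adjusted p = 0.196). Normexp and loess reduced the means of *FOSL1*, *ETV4* and *ETV5* from -1.36, -0.84 and -0.59 to -0.90, -0.37 and -0.23, all still called.

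*FOSL1* was also the gene of the list that passed the test in each of the other treatments. With the siRNAs the list median was 0.346 beside 0.0306 over all genes, of which 4.01% were called higher. *FOSL1* was 0.47, 0.70 and 1.02 there, a mean of 0.73 (adjusted p = 0.044), and it was the only 1 of 11 tested to be called. That call was lost with any 1 array left out (adjusted p of 0.0756 to 0.177) and with normexp and loess (mean 0.43, adjusted p = 0.0826). It was also lost with median centering (0.0584) and with these arrays alone (0.14). Subtraction of the other groups gave a mean of 1.91 (adjusted p = 0.00652), which takes in the falls of *FOSL1* in those groups (means of -0.99 and -1.36). With *miR-150-3p* its EBC-1 value was -1.41 and its SK-MES-1 value -0.58, a mean of -0.99 (adjusted p = 0.0419). That call rests on 1 array per line, with the larger fall in EBC-1, and leaving 1 out leaves no replicate. The adjusted p of *FOSL1* was 0.0541 with no filter on dim probes, 0.164 with subtraction of the other groups and 0.356 with own arrays alone. It was the only 1 of 12 called in those arrays, with a list median of -0.202 beside 0.0352 over all genes, of which 2.9% were called lower. *FOSL1* and *MMP7* were both lower on the edited A549 arrays and both higher on the siDONSON arrays. With *miR-150-3p* their ratios had opposite signs on both arrays, but *MMP7* was not called and its SK-MES-1 ratio lay within its limit.

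Among 8 activators and binding partners, *PCSK5*, a proprotein convertase of the furin family, was the lowest in edited A549 cells. Its log2 ratios were -3.33, -3.30 and -2.92 (adjusted p = 0.000956), and it was called with any 1 array left out. Normexp and loess reduced its mean from -3.19 to -1.41 (adjusted p = 4.57e-05). *BSG*, which encodes the inducer of metalloproteinases EMMPRIN, was higher by 0.26, 0.43 and 0.41 (adjusted p = 0.0472), a call lost with any 1 array left out (0.139 to 0.241), with median centering (0.0706) and with the other groups subtracted (0.447). In edited A549 cells 1 of the 8 was thus called lower and 1 higher, beside 6.77% and 7.58% of all genes. The 6 other genes of the list were not called, with a list median of -0.125 beside 0.0223 over all genes. With the siRNAs, *CD44*, a cell surface receptor that holds *MMP9* protein, was higher by 0.46, 0.98 and 0.27 (adjusted p = 0.0464). It was the only 1 of 6 tested to be called, beside 4.01% of all genes called higher. Its call was lost with any 1 array left out (0.0757 to 0.0995) and with normexp and loess (0.07, adjusted p = 0.461). Its adjusted p was 0.056 with median centering, 0.0546 with the other groups subtracted and 0.208 with these arrays alone. *CD44* could not be tested where both channels must be above background or with the brightest probe alone. With *miR-150-3p*, limma called 0 of 7, and 0 had an unadjusted p under 0.05.

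Of 5 other inhibitors, 4 could be tested in edited A549 cells and 2 were lower, beside 6.77% of all genes. *TFPI2*, a Kunitz-type inhibitor, was -0.69, -1.30 and -1.31 (adjusted p = 0.0116, and 0.0295 to 0.0836 with 1 array left out), and with the other groups subtracted its adjusted p was 0.109. *SPOCK1*, a testican proteoglycan, was -1.02, -0.97 and -0.40 (adjusted p = 0.0396, and 0.0625 to 0.196), and normexp and loess reduced its mean from -0.80 to -0.51. In the other treatments 2 of this list could be tested and 0 were called by limma, with 0 under an unadjusted p of 0.05. *SPOCK1* was not among those tested. With *miR-150-3p* it was counted on the SK-MES-1 array and not on the EBC-1 array. Its log2 ratio in SK-MES-1 was -2.004, a value from 1 array with no replicate. Other genes of the list counted there and not in EBC-1 were at 0.6943 and -0.04133. Of the ADAM and ADAMTS proteases that TIMPs also bind, *ADAM17*, the sheddase of TNF, was the gene called. It was lower in edited A549 cells, at -0.47, -0.63 and -0.51 (adjusted p = 0.0273, and 0.113 to 0.164 with 1 array left out), and its mean of -0.54 was -0.34 with normexp and loess. It was higher with *miR-150-3p*, at 1.04 in EBC-1 cells and 0.45 in SK-MES-1 cells (adjusted p = 0.0376, and 0.0541 with no filter on dim probes and 0.356 with these arrays alone). The latter call rests on 1 array per line, with the larger value in EBC-1. In each of these treatments *ADAM17* was 1 of 4 genes tested. Of all genes, 6.77% were called lower in edited A549 cells and 2.47% higher with *miR-150-3p*. With the siRNAs, limma called 0 of 5 genes of this list, and 1 had an unadjusted p under 0.05. Of the 16 other metalloproteinase genes on the array, 8 could be tested in each treatment and 0 were called by limma. Before adjustment, 3 had a p under 0.05 with *miR-150-3p*, 3 with the siRNAs and 5 in edited A549 cells, where 30%, 26.1% and 31% of all genes tested had one.

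**Figure D4:**
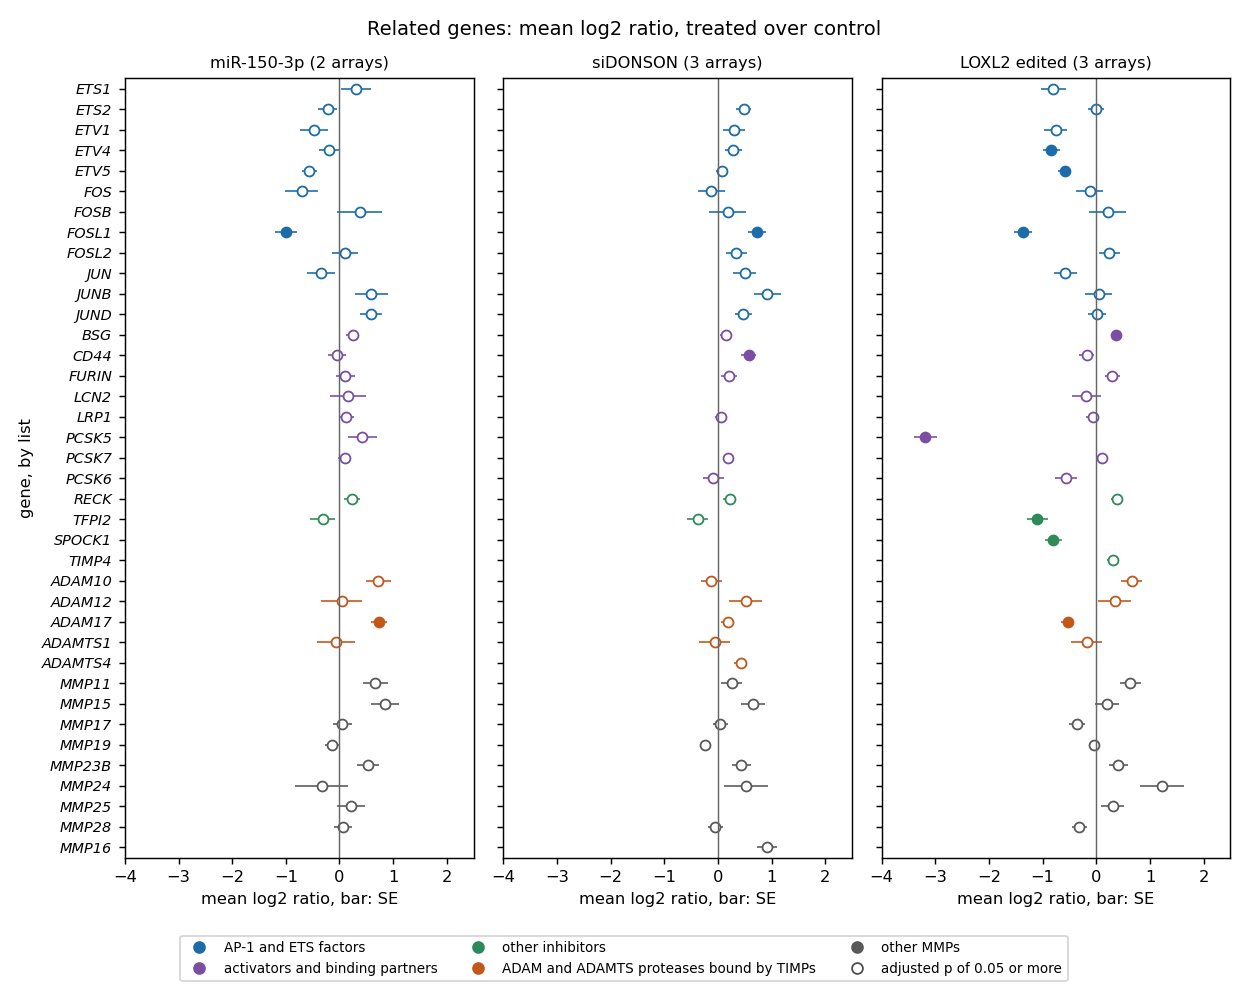
The mean log2 ratio of treated over control RNA (horizontal axis) with its SE is plotted for each tested gene of the 5 lists (vertical axis, colors) in the 3 treatments. Filled points had an adjusted p under 0.05. *FOSL1* is filled in all 3 panels, and *PCSK5* lies farthest from 0, at -3.19 in edited A549 cells.

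Of the genes measured on all 8 arrays, *MMP7* and *MMP14* varied most across them, with SDs of 1.90 and 0.726. Over the 8 log2 ratios, the 3 genes most like *MMP7* among 12863 compared were *PPP4R3B* (Pearson r = 0.989), *HSBP1L1* (0.986) and *TMEM101* (0.983). Their own changes were smaller. *PPP4R3B* ran from -0.49 to 0.49 and *TMEM101* from 0.10 to 0.89, so that the latter was not below 0 where *MMP7* fell. The genes most like *MMP14* were *RNF213-AS1* (0.907), *SNX30* (0.862) and *CHST13* (0.861), which shared with it the high value of siDONSON-2 and the low value of A549-GE2. These correlations rest on 8 points that share cell lines and controls in threes, and they describe the arrays without a test.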

How the data were processed

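Treated and control RNA was hybridized together to 8 Agilent 2-color arrays on 1 slide, read in 1 scan. The authors deposited the output of Feature Extraction 12.1.1.1. Its processed intensities are corrected for background and spatial trends and balanced between the dyes. The deposited log10 ratios come from them, as does the series' value table (largest difference 0). The software's error of each ratio, a deposited score, gave the 95% limits.

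Here, red over green intensities were taken as log2 ratios, without control spots and the 81 to 133 spots per array marked as outliers. No spot was saturated (0). Between 41.15% and 46.4% of spots passed the background test in green and 48.5% to 56.25% in red. Counted probes of a gene were averaged. limma 3.58.1 (R 4.3.3) fitted 3 group means to all 8 arrays (5 residual degrees of freedom), as 2 arrays would not do for a spread of their own, and tested each against 0, with Benjamini-Hochberg adjustment over all genes and a threshold of 0.05. Control levels were compared in a fit of 4 lines (4 residual degrees of freedom). The number of arrays limits the precision, gene-specific dye bias is not removed and no slide block could be fitted. The limma fit was tested on simulated data.

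The members and lists were chosen with earlier results of these data known. Named are the members, the targeted genes, the called genes of each list (at most 4 per list and comparison) and the 3 genes most like the 2 members of largest SD. Of fibroblast markers, 1 or 2 of 5 were above background in each line, and of 3 leukocyte markers on the array 2 or 3. The gene table is of another build than the array (hg19), so that it gave names and gene order only. Alternatives were normexp (offset 50, on median signals) with loess, other centring, dim-probe filters, the brightest probe, marked spots kept, the value table, subtraction of the other groups, own arrays alone, a log2 threshold of 0.5, other scalings of the control channel and each array left out.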

Additional observations from a re-analysis of the deposited data

How the results depend on the processing

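The direction of *MMP7* held in all 3 treatments under every alternative that could be computed, whereas its call did not. It was called under 10 of 12 alternatives in edited A549 cells (adjusted p 0.00107 to 0.0672), under 7 of 11 with the siRNAs (0.0199 to 0.196) and under 0 of 11 with *miR-150-3p* (0.0526 to 0.858). No filter, the brightest probe, marked spots kept and the value table left the *MMP7* ratios unchanged, so that these settings add little to the counts. The number of the 10 genes called with the siRNAs, 1, was 0 with normexp and loess, with both channels above background and with the spread of those arrays alone. With 1 array left out it was 0 to 1. In edited A549 cells it was 4 with no filter on dim probes, 3 of them not above background in either channel, 2 with the spread of those arrays alone and 0 to 1 with 1 array left out. With *miR-150-3p* it was 0 under every setting that kept both arrays. In SK-MES-1, 1 gene was past a log2 ratio of 1 with no filter and 2 were past 0.5. With no filter 8 genes differed between the controls of A549 and SBC-3. The cause was not tested, except where a setting changes which genes or arrays are used.

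Values that turned in sign were called in neither setting. With *miR-150-3p*, *MMP1* became 0.0384 with normexp and loess, and with 1 array left out it was -0.55 to 0.45. *MMP14* became 0.16 and *TIMP1* -0.00414 after subtraction of the other groups, and *MMP14* was -0.43 to 0.0245 with 1 array left out. With the siRNAs, *TIMP2* became 0.0816 with normexp and loess, and *MMP14* became 0.0814 and *TIMP1* -0.0681 after subtraction of the other groups. With 1 array left out, *MMP9* was -0.37 to 0.0116, *MMP14* -0.74 to 0.11, *TIMP1* -0.0238 to 0.22 and *TIMP2* -0.26 to 0.37. In edited A549 cells, *MMP9* became -0.13 after subtraction of the other groups, and *MMP14* was -0.80 to 0.0963 with 1 array left out.

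Over all genes with *miR-150-3p*, normexp and loess gave 726 lower and 810 higher, no filter 134 and 64, both channels above background 652 lower, subtraction of the other groups 155 and 69, and own arrays alone 0 and 0. Without EBC-1 there were 1 and 0, and without SK-MES-1 1586 and 1387. With the siRNAs, normexp and loess gave 967 higher, no filter 2133 lower, subtraction 386 higher, own arrays 24 lower and 2 higher, and leaving out 1 array 58 to 483 lower and 39 to 632 higher, the lowest without siDONSON-3. In edited A549 cells, normexp and loess gave 1856 higher, no filter 3914 lower, subtraction 387 and 372, own arrays 2852 and 3021, and leaving out 1 array 208 to 270 lower and 262 to 323 higher. No filter gave 9952 genes lower in A549 than in SBC-3 controls. The ratios of siRNA and edited samples with equal numbers correlated by -0.0168 to 0.00455. This cannot tell whether they shared handling, as an effect common to both channels cancels in a ratio. With the replicate block, 5 of the 10 genes differed between the controls, as without it.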

Other observations

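The control channels also held other metalloproteinase genes. Of the 16 listed, 7 could be compared between A549 and SBC-3 cells with limma. Higher in A549 were *MMP24* (difference of log2 levels 2.78, SE 0.0494, adjusted p = 8.69e-08), *MMP15* (2.01, SE 0.0645, adjusted p = 8.86e-07), *MMP25* (1.02), *MMP28* (0.77) and *MMP17* (0.51). *MMP24*, *MMP15*, *MMP17* and *MMP25* encode enzymes anchored in the membrane, as *MMP14* does, which was lower in A549. Lower in A549 were *MMP11*, a stromelysin gene (-2.69, SE 0.134, adjusted p = 5.77e-06), and *MMP19* (-0.95). Over all genes tested, 46.4% were called higher in A549 and 40.6% lower. Other settings were not run for these 7 genes, each line has 3 arrays, and the control RNA may be the same on each.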
